A study of Homo sapiens with 16 samples.

Results

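Among the 27122 binding sites of the cohesin subunit RAD21 listed for LoVo cells in early S phase, 2027 lay away from CTCF and next to a transcription factor. A site was taken into this set when its RAD21 peak overlapped no S-phase CTCF peak and shared at least 1 bp with an S-phase peak of HNF4A, KLF5 or MYC. These CTCF-free factor sites made up 2027 of the 6444 RAD21 sites without CTCF. They are set beside the other 4417 CTCF-free sites, which had no factor peak, beside 2691 sites with CTCF and a factor, and beside 17987 sites with CTCF and no factor. The sites were thus chosen by S-phase peak positions of RAD21, CTCF and the 3 factors, so S-phase values of these proteins are given as a description. The M-phase lists were not used in the choice.

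Cohesin is a protein ring that keeps sister chromatids paired and also shapes chromatin loops, and most of its sites along the genome coincide with CTCF, a zinc-finger protein that halts its movement on DNA. A smaller set of cohesin sites without CTCF is found at enhancers and promoters bound by tissue-specific transcription factors. As cells enter mitosis, much cohesin leaves the chromosome arms, and many transcription factors leave condensed chromosomes. Of the factors mapped here, HNF4A is a nuclear receptor that controls genes of enterocytes and hepatocytes, KLF5 is a zinc-finger protein of the dividing cells of intestinal crypts, and MYC is a helix-loop-helix protein that promotes growth.

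The cells were LoVo, an established line of human colon adenocarcinoma. M-phase cells had spent 12 h in 2 mM thymidine and then 8 h in 200 ng/ml nocodazole, a drug that prevents spindle assembly and so holds cells in mitosis. S-phase cells had been held by a double block, with 12 h in 2 mM thymidine, 8 h without it and 12 h with it again. Chromatin fixed with 1% formaldehyde was precipitated with 5 µg of antibody, sequenced, and turned by the authors into 12 peak lists, 1 per phase for RAD21, CTCF, the 3 factors and histone H3. The other 4 libraries were IgG controls.

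Each target had 1 library in each phase, so no test between phases or groups over samples was possible. The 95% intervals given here are over sites, which are not replicates, and cover counting error only. The M-phase RAD21 library held 16510005 filtered tags, 2.19 times the 7531890 of the S-phase library. All M-phase lists but that of CTCF were called against the same rabbit IgG library, and the CTCF list against goat IgG. The deposited false discovery rate (FDR) was under 5% for 62.3% of M-phase RAD21 peaks, 18.7% of KLF5 peaks, 4.36% of MYC peaks and 0 of the 2413 HNF4A peaks. The labels assign 2118, the number of peaks listed for M-phase KLF5, to the M-phase rabbit IgG, so the main results for any factor are also given without it. Were the KLF5 and IgG libraries exchanged, every M-phase list called against that IgG would be touched, which was not tested.

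In S phase the CTCF-free factor sites were weak cohesin sites. Their median RAD21 score, which is -10 times the log10 of the caller's p-value, was 71.7 (middle range 59.6 to 94.7). The median was 82.1 at CTCF-free sites without a factor, 158 at sites with CTCF and a factor, and 178 at sites with CTCF and no factor. The authors' fold enrichment had a median of 6.52 at CTCF-free factor sites, against 8.22, 10.6 and 12.9 in the same other classes. The RAD21 peaks were 759 bp wide in the median and held 14 tags. HNF4A was listed at 1479 of the 2027 sites (73.0%), MYC at 1384 (68.3%) and KLF5 at 761 (37.5%).

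KLF5 was rarely the only factor. By combination, HNF4A alone was at 488 sites, MYC alone at 363 and KLF5 alone at 48. HNF4A with MYC was at 415 sites, KLF5 with MYC at 137 and HNF4A with KLF5 at 107. All 3 factors were listed at 469 sites, or 23.1%. These triple sites had the highest median RAD21 score, 77.4, and the widest median RAD21 peak, 855 bp, against 69.5 and 722 bp at sites with 1 factor. The sites are not fully separate, since 131 of them shared a factor peak with another.

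At its edges the set depends on small distances. The 3 sites with the shortest overlap shared 17, 18 and 32 bp with a factor peak, and none of them had an M-phase peak of any of the 5 proteins. The 3 CTCF-free RAD21 sites just outside lay 2, 5 and 15 bp from a factor peak and also had no M-phase peak of the 5 proteins. Only 12 of the 2027 sites overlapped a factor by less than 100 bp. The 3 sites nearest to an S-phase CTCF peak lay 38, 47 and 50 bp from it, and none had M-phase RAD21 or CTCF.

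RAD21 was listed again in M phase at 506 of the 2027 CTCF-free factor sites, or 24.96% (23.1 to 26.9%), against 69.7% of all S-phase RAD21 sites. It was 10.3% with both summits within 100 bp and 8.44% with M-phase peaks under an FDR of 5%, and 50.1% among the 469 sites left when every S-phase list was limited to a score of at least 100. The share of the 2027 sites differed among combinations of factors. It was highest with HNF4A and KLF5 (31.8%, 23.1 to 41.5%), with all 3 factors (29.9%, 25.7 to 34.2%) and with HNF4A and MYC (27.2%, 23.0 to 31.8%). It was lowest with KLF5 and MYC (14.6%, 9.15 to 21.6%). MYC alone gave 22.9%, HNF4A alone 21.7% and KLF5 alone 20.8%, and their intervals overlapped.

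Taken over all combinations, sites with HNF4A in S phase more often had RAD21 in M phase. Sites with HNF4A had M-phase RAD21 in 26.6% of cases and sites without HNF4A in 20.6%, a difference of 5.95 percentage points (1.75 to 9.88). Compared within 10 equal groups of S-phase RAD21 score, the difference was 4.71 points (0.832 to 8.58). KLF5 gave 2.95 points (-0.924 to 6.92) and MYC 2.39 points (-1.69 to 6.30), and both intervals included 0. Whether the 3 factors differ in this was not tested. The number of other factors at the site was not held fixed. As the only factor, HNF4A had M-phase RAD21 at 21.7% of sites, MYC at 22.9% and KLF5 at 20.8%. The sites without HNF4A include those with KLF5 and MYC, at 14.6%. Sites with all 3 factors exceeded sites with KLF5 and MYC by 15.3 points (7.32 to 21.8), a pair chosen after its values were seen. Sites with 3 factors exceeded sites with 1 factor by 7.72 points (2.84 to 12.7), but within groups of score by 4.32 points, with an interval of -0.656 to 9.30 that included 0.

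**Figure D1:**
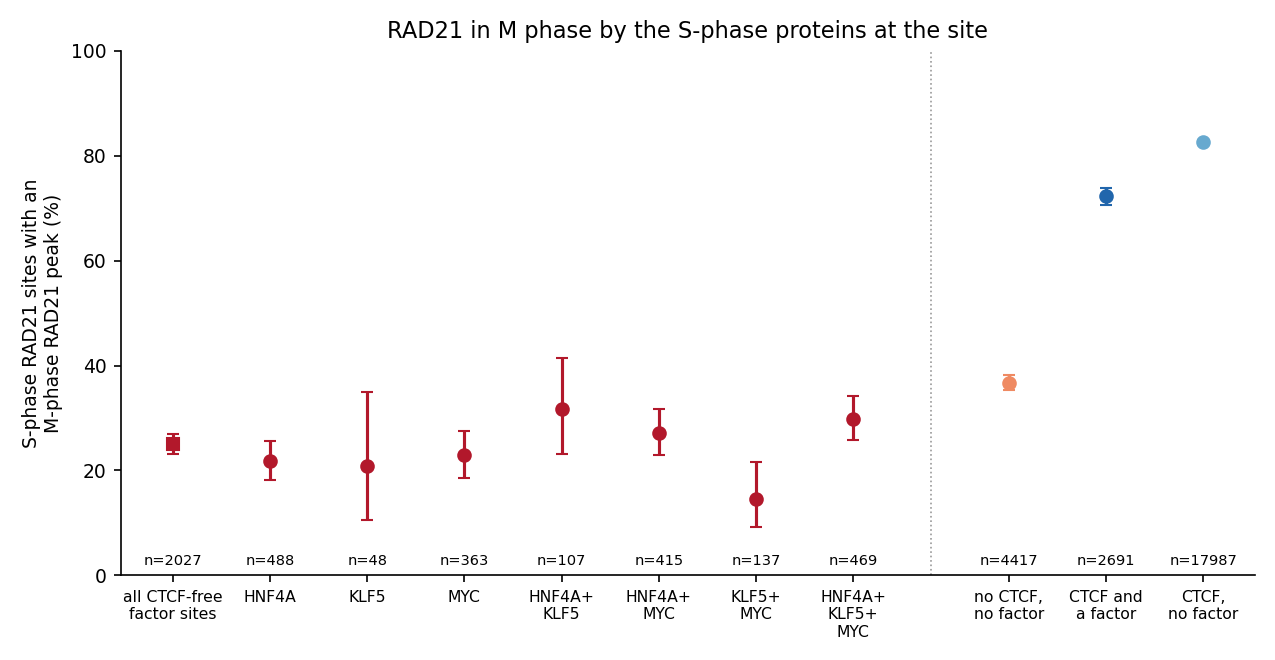
Share of S-phase RAD21 sites (percent, vertical axis) with an M-phase RAD21 peak, for all 2027 CTCF-free factor sites (square), for their 7 combinations of factors (red circles) and for the 3 other classes of RAD21 site. Bars are 95% Clopper-Pearson intervals over sites, n is the number of sites, and the combinations range between 14.6% and 31.8%.

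The gap between CTCF-free factor sites and other CTCF-free sites changed with the strength of the site. M-phase RAD21 was listed at 24.96% of CTCF-free factor sites and 36.7% of CTCF-free sites without a factor, a difference of -11.8 points (-14.1 to -9.39). It was -4.38 points where sites with M-phase CTCF were left out, -7.71 with an M-phase score of at least 100 and -18.4 with both summits within 100 bp. The difference was -21.7 with S-phase scores of at least 100, a limit that let in sites with a weak CTCF peak. Compared within 10 groups of S-phase RAD21 score it was -4.59 points (-6.79 to -2.40). This average joined opposite directions. When the sites were divided at the scores 59.6, 71.7 and 94.7 into 4 groups of nearly equal numbers of CTCF-free factor sites, the weakest group had M-phase RAD21 at 19.1% of sites with a factor and 12.8% of those without, a difference of 6.31 points (2.23 to 10.6).

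In the next group the shares were 16.2% with a factor and 17.3% without (difference -1.02, -4.98 to 3.18). The stronger groups turned the other way. In the group above it RAD21 was listed at 23.2% of sites with a factor and 29.3% of those without (-6.11 points, -10.6 to -1.41). In the strongest it was listed at 41.2% with a factor and 61.7% without (-20.5 points, -25.3 to -15.6). The strongest group reaches from 94.7 to a score of 519, and differences of strength inside it were not removed.

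Against sites with both CTCF and a factor, the CTCF-free factor sites were lower in every group of score. The shares were 24.96% and 72.2% over all sites, a difference of -47.3 points (-49.8 to -44.7), and -23.2 points (-26.4 to -19.98) within 10 groups of score. In the 4 groups above the difference ran from -13.6 points in the weakest (-21.6 to -6.14) to -40.6 in the strongest (-45.1 to -35.8). Sites scored outside 50.04 to 519.09 were in none of the 4 groups, and the strongest held 1682 of the 2691 sites with CTCF and a factor.

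**Figure D2:**
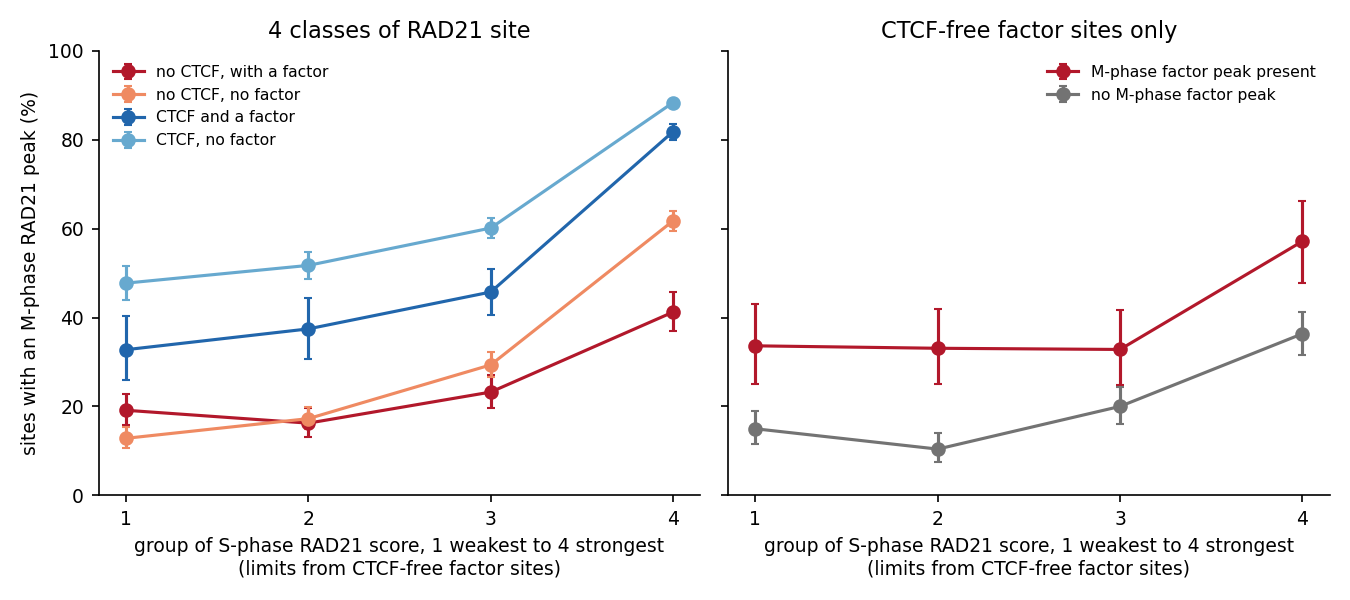
Share of sites with an M-phase RAD21 peak (percent, vertical axis) in 4 groups of S-phase RAD21 score, weakest to strongest (horizontal axis); left, the 4 classes of RAD21 site, and right, CTCF-free factor sites with and without an M-phase factor peak. Bars are 95% intervals over sites, and sites scored outside 50.04 to 519.09 are left out. On the left the red line is above the orange line in the weakest group and below it in the strongest. On the right the red points lie above the grey ones in each group.

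Where RAD21 was listed in both phases at a CTCF-free factor site, the M-phase peak was wider but not richer in tags, as in the other classes. Over the 465 sites with a single peak per phase, RAD21 had a median of 1.88 tags per 1000000 library tags in M phase, on 1091 bp, and 2.26 in S phase, on 892 bp. At CTCF-free sites without a factor the medians were 1.76 on 987 bp in M phase and 2.26 on 814 bp in S phase. With CTCF and a factor they were 2.85 on 1157 bp and 4.12 on 1043 bp. With CTCF and no factor they were 2.73 on 1095 bp and 3.58 on 957 bp. Each list had its own called widths, and such sums move with them. Only 152 of these 465 M-phase peaks (32.7%) had an FDR under 5%, compared with 44.7% at CTCF-free sites without a factor, 71.6% at sites with CTCF and a factor, and 76.7% at sites with CTCF and no factor.

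The M-phase RAD21 summits at CTCF-free factor sites also lay further from the S-phase summits than in the other classes. The M-phase summit, the point of highest signal, lay a median of 143 bp from the S-phase summit (middle range 49 to 359 bp, 506 sites). The median shift was 49 bp at CTCF-free sites without a factor, 47 bp at sites with CTCF and a factor, and 38 bp at sites with CTCF and no factor. Summits within 100 bp of each other were found at 41.3% of the CTCF-free factor sites with RAD21 in both phases, against 78.0%, 80.1% and 87.1% in those other classes.

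The larger shift was present at weak and at strong sites alike. Below the median score of the CTCF-free factor sites it was 178 bp, against 62.5 bp at CTCF-free sites without a factor. At or above that score it was 126 bp against 48 bp. Among CTCF-free factor sites it was 185 bp with an M-phase factor peak and 123 bp without, and 94 bp with an M-phase CTCF peak and 164 bp without. Peak width moved with these groups in part: the S-phase RAD21 peaks had median widths of 759 bp at CTCF-free factor sites and 715, 985 and 924 bp in the other classes in the same order. Its part in the shift was not tested.

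**Figure D3:**
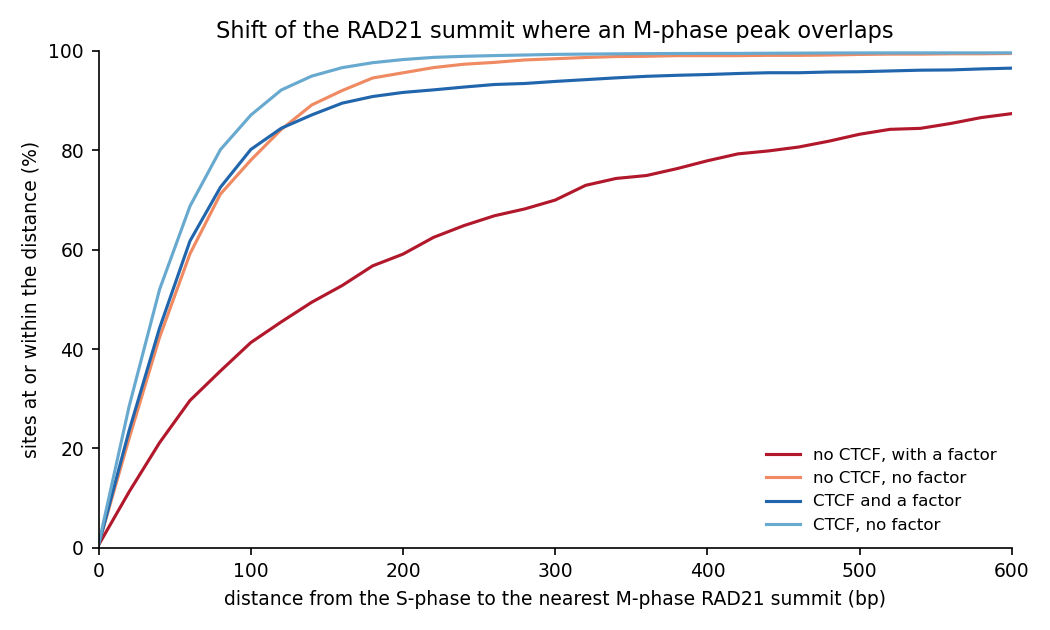
Share of sites (percent, vertical axis) whose nearest M-phase RAD21 summit lay at or within a given distance (bp, horizontal axis) of the S-phase summit, for sites with an overlapping M-phase RAD21 peak in the 4 classes. The red line of the 506 CTCF-free factor sites reaches 41.3% at 100 bp, and the other lines reach 78.0% or more.

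The transcription factors were listed in M phase at about as many of the sites as RAD21 was. Any of the 3 was listed at 490 of the 2027 CTCF-free factor sites, or 24.2% (22.3 to 26.1%), against 3.59% of all S-phase RAD21 sites, most of which had no factor in S phase. HNF4A was listed in M phase at 239 sites (11.8%, against 1.38% of all RAD21 sites), MYC at 185 (9.13%, against 1.49%) and KLF5 at 130 (6.41%, against 1.12%). Without the M-phase KLF5 list, HNF4A or MYC was listed at 406 sites, or 20.03%, against 2.75% of all RAD21 sites. With M-phase factor summits within 100 bp of the RAD21 summit, any of the 3 was at 7.70%, and with M-phase peaks under an FDR of 5% at 3.60%. The share under that FDR rested mainly on the M-phase KLF5 list and was not computed without it. Under it, HNF4A peaks at these sites were found again in 0%, MYC peaks in 0.595% and KLF5 peaks in 8.97%. An M-phase peak of histone H3, the chromatin control, lay at 3 sites (0.148%, against 0.0516%).

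The M-phase factor was mostly one that S phase had already shown at the site. HNF4A was listed in M phase at 237 of the 1479 sites that had HNF4A in S phase (16.0%, 14.2 to 18.0%) and at 2 of the 548 that did not (0.365%). MYC was listed at 172 of 1384 sites that had MYC in S phase (12.4%) and at 13 of 643 that did not (2.02%). KLF5 was listed at 111 of 761 sites that had KLF5 in S phase (14.6%) and at 19 of 1266 that did not (1.50%). Of the 490 sites with a factor in M phase, 55 had at least 2 and 9 had all 3. These counts were not made over all RAD21 sites.

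Sites with several factors in S phase more often had a factor in M phase. The share was 14.8% with 1 factor in S phase, 27.3% with 2 and 37.7% with 3. Sites with 3 exceeded sites with 1 by 22.9 points (18.0 to 27.9), a comparison in which sites with 3 factors have 3 peaks that can be found again. Without the M-phase KLF5 list the shares were 13.5%, 22.8% and 28.8%, and sites with 3 exceeded sites with 1 by 15.3 points (10.7 to 20.1). Sites with HNF4A and KLF5 had the highest share of any combination, 40.2%, and sites with MYC alone the lowest, 9.09%. That first place rests on the M-phase KLF5 list. Without it, sites with HNF4A and KLF5 had 24.3% (16.5 to 33.5%), below the 28.8% of sites with all 3 factors and the 25.8% of sites with HNF4A and MYC, and MYC alone had 8.26%. At those 107 sites with HNF4A and KLF5, HNF4A was listed in M phase at 23.4% (15.7 to 32.5%) and KLF5 at 18.7% (11.8 to 27.4%). KLF5 was at 5.84% (2.55 to 11.2%) of the 137 sites with KLF5 and MYC.

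**Figure D4:**
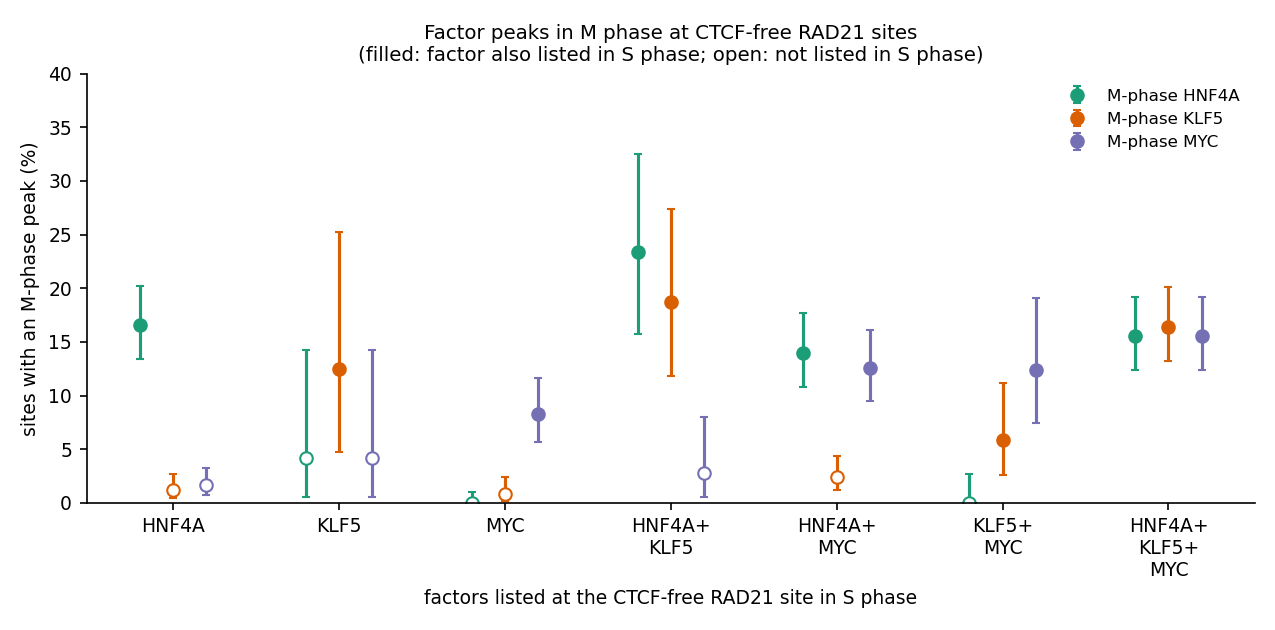
Share of CTCF-free factor sites (percent, vertical axis) with an M-phase peak of HNF4A, KLF5 or MYC, by the combination of factors listed in S phase (horizontal axis); filled points are factors listed at the site in S phase, open points factors that were not. Bars are 95% intervals over sites, and the open points are all at or under 4.17%.

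Each factor was found again in M phase mainly where its own S-phase peak was strong. When the sites with HNF4A were divided into 4 groups by HNF4A score, M-phase HNF4A was listed at 3 of 370 in the weakest, 9 of 369, 46 of 370, and 179 of 370 (48.4%, 43.2 to 53.6%) in the strongest. KLF5 gave 13, 12 and 15 of 190 in its weaker groups and 71 of 191 (37.2%) in its strongest. MYC gave 15, 14 and 23 of 346 in its weaker groups and 120 of 346 (34.7%) in its strongest. The factor's score and the RAD21 score of the same site were almost unrelated in S phase, with a Spearman's rho across sites of 0.01 (HNF4A), 0.02 (KLF5) and 0.06 (MYC), given as a description. Divided by RAD21 score instead, the 4 groups had an M-phase factor at 22.3%, 25.7%, 25.2% and 23.5% of sites, weakest to strongest.

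Counted by factor peaks, HNF4A and KLF5 peaks at CTCF-free factor sites were listed again in M phase more often than those away from cohesin and CTCF. For HNF4A this held for 258 of 1437 peaks (18.0%, 16.0 to 20.04%), against 12.1% of its peaks without RAD21 or CTCF and 12.3% of all its S-phase peaks. For KLF5 it held for 119 of 736 (16.2%), against 11.0% without RAD21 or CTCF and 11.4% of all. The differences from peaks without RAD21 or CTCF were 5.86 points for HNF4A (3.87 to 8.01) and 5.13 for KLF5 (2.43 to 8.13). MYC peaks were listed again in 184 of 1344 cases (13.7%), against 12.5% and 12.6%, and the difference of 1.21 points had an interval of -0.688 to 3.29 that included 0. The peaks at CTCF-free factor sites were also stronger, with a median HNF4A score of 130 against 93.6 for those without RAD21 or CTCF. Within 10 groups of the factor's own score the HNF4A difference turned, to -1.85 points (-3.59 to -0.118), where it had been 5.86. The KLF5 difference was 0.912 points (-1.82 to 3.65) and that of MYC -1.56 (-3.36 to 0.237).

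The factor peaks that did remain at these sites were narrower in M phase, with fewer tags over those widths. Such sums move with the called widths, as for RAD21. The 251 HNF4A peaks with a single partner had a median of 1.90 tags per 1000000 library tags in M phase, on 852 bp, and 7.39 in S phase, on 1658 bp. The 183 such MYC peaks had 2.02 in M phase, on 1164 bp, and 7.43 in S phase, on 1967 bp. The 117 such KLF5 peaks had 2.58 in M phase, on 958 bp, and 4.74 in S phase, on 1680 bp.

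Set beside sites with CTCF and a factor, the CTCF-free factor sites more often had an M-phase factor peak. The shares were 24.2% and 14.5%, a difference of 9.72 points (7.44 to 12.0), and 9.54 points (6.83 to 12.2) within groups of RAD21 score. Without the M-phase KLF5 list they were 20.03% and 11.2%, a difference of 8.81 points (6.71 to 10.9). For HNF4A the shares were 11.8% and 4.61%, a difference of 7.18 points (5.60 to 8.83). HNF4A was also listed more often in S phase at the CTCF-free factor sites, 1479 of 2027 against 1395 of 2691. Among sites with S-phase HNF4A, M-phase HNF4A was at 16.0% of CTCF-free sites and 8.89% of those with CTCF, a difference of 7.14 points (4.74 to 9.53). Over all sites the KLF5 difference was 2.10 points (0.811 to 3.45), and among sites with S-phase KLF5 it was 5.35 points (2.26 to 8.53). The MYC difference over all sites was 1.99 points (0.424 to 3.61), and 0.594 (-1.34 to 2.53) within groups of score. Among sites with S-phase MYC it was 2.85 points (0.699 to 5.06), and 1.12 (-1.42 to 3.66) within groups of score. Whether the 3 factors differ in this was not tested. The factor peaks themselves were stronger at CTCF-free factor sites than at other RAD21 sites, which had CTCF. Median scores were 130 against 99.6 for HNF4A, 93.2 against 84.2 for KLF5 and 128 against 123 for MYC. These differences were not compared within groups of the factor's own score, so the part of factor strength was not tested.

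RAD21 and the factors were found together in M phase at 191 of the 2027 sites, or 9.42% (8.19 to 10.8%), against 2.06% of all RAD21 sites. RAD21 without a factor was listed at 315 sites (15.5%), a factor without RAD21 at 299 (14.8%), and neither at 1222 (60.3%). Without the M-phase KLF5 list, RAD21 and a factor were together at 156 sites (7.70%, against 1.5% of all RAD21 sites). Of the 1222 sites with neither RAD21 nor any of the 3 factors, CTCF was listed at 108. No M-phase peak of any of the 5 proteins was listed at 1114 sites, or 55.0% (52.8 to 57.1%), against 18.7% of all RAD21 sites. No site had all 5 proteins in M phase, and 12 had 4, counts that were not made over all RAD21 sites.

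RAD21 was listed in M phase more often where a factor was. It was listed at 191 of the 490 sites with an M-phase factor peak (39.0%, 34.6 to 43.5%) and at 315 of the 1537 without (20.5%, 18.5 to 22.6%), a difference of 18.5 points (13.8 to 23.3). The 2 groups had S-phase RAD21 scores of 72.0 and 71.7 in the median, and within groups of score the difference was 18.0 points (13.4 to 22.6). Taken by factor, M-phase HNF4A gave 14.9 points (8.61 to 21.4), M-phase KLF5 20.2 points (11.7 to 29.0) and M-phase MYC 17.1 points (10.0 to 24.6). Without the M-phase KLF5 list it was 16.8 points (11.8 to 22.02).

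The size of this difference depended on what counted as a peak at the site. When M-phase RAD21 and factor summits both had to lie within 100 bp of the S-phase RAD21 summit, it was 2.02 points (-2.46 to 8.22), an alternative that left 156 sites with a factor. With an M-phase score of at least 100 it was 9.21 points (4.34 to 15.4). The S-phase RAD21 peaks had a median width of 810 bp at sites with an M-phase factor and 742 bp at sites without, and M-phase RAD21 and factor lists shared their IgG control. The part of either in the difference was not tested.

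Counted by overlap of 1 bp, the joint listing was stronger than where S-phase CTCF was present. At sites with CTCF and a factor, M-phase RAD21 was at 76.9% of sites with an M-phase factor and 71.5% of those without, a difference of 5.40 points (0.609 to 9.75). The CTCF-free factor sites exceeded this by 13.1 points (6.47 to 19.7), by 12.2 points (6.07 to 18.2) within groups of score, and by 12.8 points (5.51 to 20.1) without the M-phase KLF5 list. Among the 469 sites with all 3 factors in S phase, RAD21 was listed in M phase at 64 of 292 with no M-phase factor (21.9%), 57 of 138 with 1 (41.3%), 16 of 32 with 2 (50%) and 3 of 7 with 3. The last group is too small to place, with an interval of 9.90 to 81.6%.

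**Figure D5:**
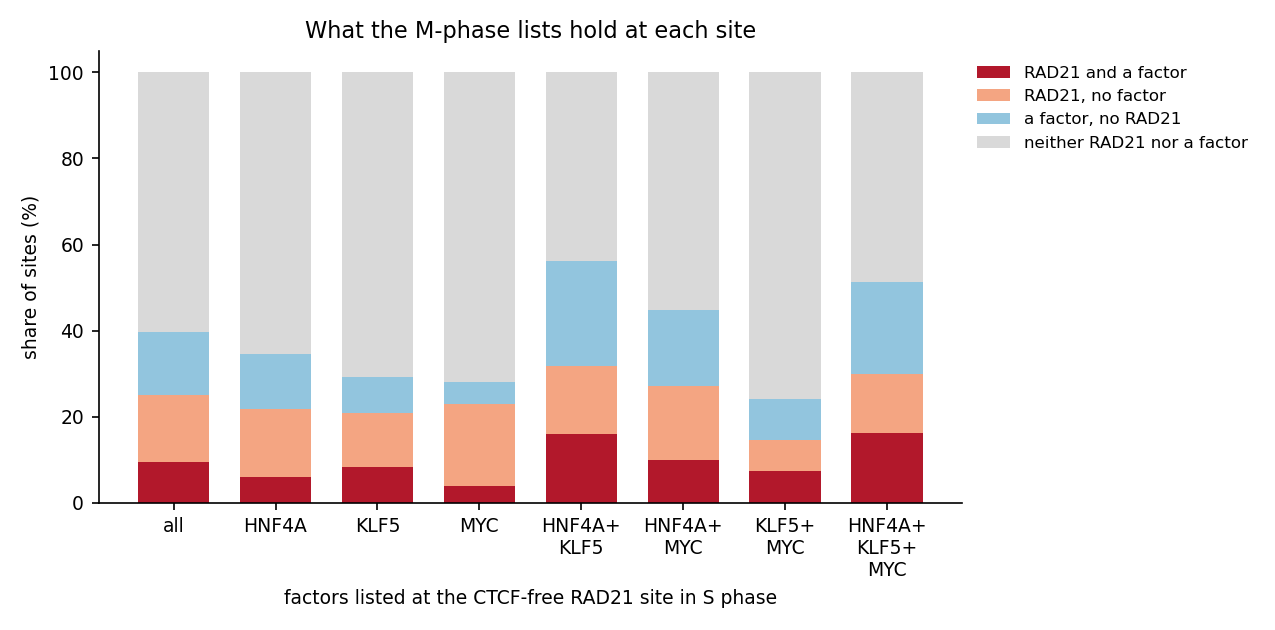
Share of CTCF-free factor sites (percent, vertical axis, stacked to 100%) by what the M-phase lists held there, for all 2027 sites and for each combination of factors listed in S phase (horizontal axis). RAD21 with a factor was at 9.42% of all sites and neither at 60.3%; sites with KLF5 and MYC had neither at 75.9%.

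CTCF was listed in M phase at 260 of the 2027 sites, none of which had an S-phase CTCF peak by the rule. This was 12.8% (11.4 to 14.4%), against 65.6% of all RAD21 sites and 26.7% of CTCF-free sites without a factor. The difference between the CTCF-free factor sites and those without a factor was -13.9 points (-15.8 to -11.9), and -9.04 (-10.9 to -7.21) within groups of RAD21 score. With an FDR under 5% in M phase, CTCF was at 1.73% of the CTCF-free factor sites. The headers name other alignment files for S-phase CTCF than for the rabbit antibodies of that phase, and whether the cultures were the same is not stated.

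Sites that had CTCF in M phase had M-phase RAD21 more often. RAD21 was listed at 126 of 260 sites with M-phase CTCF (48.5%, 42.2 to 54.7%) and at 380 of 1767 without (21.5%), a difference of 27.0 points (20.6 to 33.3). The sites with M-phase CTCF were stronger in S phase, with a median RAD21 score of 92.9 against 69.7, and within groups of score the difference was 19.8 points (13.3 to 26.2). At CTCF-free sites without a factor the shares were 66.5% with M-phase CTCF and 25.9% without, a difference of 40.6 points, and of 24.6 points (21.3 to 27.9) within groups of score. The difference at CTCF-free factor sites was smaller by 13.7 points over all sites (difference -13.7, -20.8 to -6.60). Within groups of score the gap was -4.80 points, with an interval of -12.0 to 2.42 that included 0. M-phase CTCF itself was at 13.1% of sites with an M-phase factor and 12.8% of those without, a difference of 0.309 points (-2.91 to 3.94).

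RAD21 with a factor was listed without CTCF in M phase at 153 sites, with CTCF at 38. Where M-phase CTCF was absent, RAD21 was at 35.9% of sites with an M-phase factor and 16.9% of those without (19.0 points, 14.1 to 24.0). Where it was present, RAD21 was at 59.4% with a factor and 44.9% without (14.5 points, 0.388 to 27.6).

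The distance between cohesin and factor summits varied widely among sites. In S phase the RAD21 summit of the CTCF-free factor sites lay a median of 129 bp from the nearest factor summit (middle range 46 to 312 bp), and 43.6% lay within 100 bp. At sites with CTCF and a factor the distance to the factor was 179 bp, whereas that to CTCF was 60 bp. In M phase, 189 RAD21 peaks at CTCF-free factor sites overlapped a factor peak, with summits a median of 160 bp apart, and 125 overlapped a CTCF peak, with summits 70 bp apart.

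The sites with the most distant RAD21 and factor summits in S phase had RAD21 more often and a factor less often in M phase than those with the closest. With summits under 50 bp apart, 50 to 100, 100 to 200, 200 to 400 and at least 400 bp apart, M-phase RAD21 was at 22.9%, 22.3%, 23.7%, 26.7% and 29.7% of sites. An M-phase factor was at 27.7%, 24.1%, 26.8%, 23.2% and 17.6% of sites in the same order. Sites at 400 bp or more differed from sites under 50 bp by 6.86 points for RAD21 (1.12 to 12.7) and by -10.04 points for a factor (-15.3 to -4.55), a pair of groups chosen after the values were seen. The shares in between had no steady order. The median RAD21 score was 71.2 at 400 bp or more and 72.3 under 50 bp.

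Single sites show these outcomes. Positions are in the human build hg18, and no gene was assigned to them. Tag counts are as deposited and not scaled to the libraries, whose filtered tags in M phase were between 0.712 (KLF5) and 2.19 (RAD21) times those in S phase.

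The factor peaks of highest fold enrichment were found again, and RAD21 was not. The site on chromosome 1 from 100207343 to 100208378 held the HNF4A peak of highest fold enrichment of the set. Its HNF4A peak counted 40 tags at 23.2-fold in M phase and 177 tags at 96.9-fold in S phase. KLF5, MYC and RAD21 were listed in S phase only, RAD21 with 19 tags at 10.2-fold.

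The leading KLF5 site, on chromosome 2 from 191151186 to 191152337, had a KLF5 peak of 73 tags at 17.1-fold in M phase and 129 tags at 46.3-fold in S phase. RAD21, HNF4A and MYC were listed in S phase only, with 25, 74 and 35 tags. The leading MYC site, on chromosome 7 from 1748151 to 1748828, held 126 MYC tags at 19.9-fold in M phase and 341 at 70.1-fold in S phase, and its S-phase RAD21 peak had a low score of 52.7 and 12 tags. In M phase MYC was the only one of the 5 proteins there.

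Strong cohesin peaks went either way. On chromosome 4 from 124490118 to 124491834, the RAD21 peak counted 50 tags (20.3-fold) in M phase and 52 tags (21.6-fold) in S phase. HNF4A and MYC were listed there in S phase and CTCF, with 28 tags at 20.3-fold, in M phase. On chromosome 9 from 89880637 to 89881377, the RAD21 peak of highest fold enrichment among sites with all 3 factors had 48 tags at 8.75-fold in M phase and 20 tags at 25.7-fold in S phase. Its S-phase MYC peak counted 45 tags (29.9-fold), and in M phase CTCF and no factor was listed.

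On chromosome 20 from 25238825 to 25239875, S-phase RAD21 counted 34 tags (16.4-fold) beside HNF4A with 62 tags, and the M-phase lists held none of the 5 proteins. On chromosome 16 from 21869414 to 21870565, S-phase RAD21 counted 36 tags (21.0-fold) beside MYC, and in M phase CTCF alone was listed, with 26 tags. Of the 7 sites that led their combination without M-phase RAD21, 3 had another of the 5 proteins in M phase: 2 had CTCF and 1 had KLF5.

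A site with nearly the whole set of proteins in M phase lay on chromosome 10 from 114843298 to 114844336. RAD21 counted 29 tags in M phase (11.1-fold) and 17 in S phase (7.36-fold). HNF4A counted 27 tags in M phase and 52 in S phase. KLF5 counted 32 in M phase and 51 in S phase, and MYC 38 in M phase and 31 in S phase. CTCF was listed in neither phase. On chromosome 16, neighbouring sites from 21219316 to 21220017 and from 21220210 to 21220950 shared their factor peaks. At the first, RAD21 counted 25 tags in M phase and 27 in S phase, and at the other 28 in M phase and 15 in S phase. KLF5, MYC and CTCF were listed at both in M phase.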

How the data were processed

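The values are MACS peak lists from ChIP-seq, 1 library per target and phase. Per the submitters' processing notes, CASAVA 1.4, BWA and MACS 1.4 were used with the build hg18; the headers name MACS 1.4.0rc2. They also give, per the file headers, an IgG control for each list, a p-value cutoff of 1e-05 and no more than 1 tag per position. Tags per peak were deposited as whole counts and not scaled. As the score, the authors deposited -10 times the log10 of the p-value. The deposited fold enrichment is a ratio of tags over a background modelled from IgG. The deposited FDR is a percent. All listed peaks were used.

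Overlaps (at least 1 bp), summit distances and shares were computed with scipy 1.17.1, pandas 2.3.3 and numpy 2.4.6 in Python 3.11.15. Shares have Clopper-Pearson 95% intervals, differences Newcombe intervals. Differences within 10 groups of score are weighted by the smaller class, with normal intervals, as is the difference of 2 differences. Tags per 1000000 are tag counts divided by the library's filtered tags in the headers. The steps were tested on simulated data.

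The members and lists were chosen with earlier results of these data known. Sites named in the text followed a rule: the highest RAD21 fold enrichment in each combination with and without M-phase RAD21, the highest fold of each factor, the most proteins in M phase, and the sites nearest the limits of the set, away from chromosome 8 and H3 peaks. A part of these is named. No hg18 genome or gene annotation was used here, so no sequence, motif or gene is given. No label carries an siRNA treatment, which the design text names, and none was assumed.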

Additional observations from a re-analysis of the deposited data

How the results depend on the processing

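No paired analysis was possible because there was 1 library per target and phase. Within groups of the factor's score, the HNF4A difference between peaks at CTCF-free factor sites and those without RAD21 or CTCF turned to -1.85 points (-3.59 to -0.118). That of MYC was -1.56 points (-3.36 to 0.237), where it had been 1.21 points (-0.688 to 3.29), and both intervals included 0. Alternatives for the RAD21 difference by M-phase factor or CTCF, and those without the M-phase KLF5 list, among sites with the factor in S phase or by summit distance, were chosen after seeing the data. Requiring no CTCF peak within 1000 bp, a factor summit inside the RAD21 peak, or no H3 peak moved no value out of its interval.

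M-phase RAD21 was at 24.96% of CTCF-free factor sites with 1 bp shared, at 19.5% with 50% of both peaks shared, 10.3% with summits within 100 bp, 8.39% with an M-phase score of at least 100 and 8.44% with an FDR under 5%. It was at 21.5% where sites with M-phase CTCF were left out and at 50.1% with S-phase scores of at least 100, a limit that let in sites with a weak S-phase CTCF peak. In the same order of settings, the difference from CTCF-free sites without a factor was -16.0, -18.4, -7.71, -7.98, -4.38 and -21.7 points, and -4.59 within groups of score. That from sites with CTCF and a factor was -43.8 points with the M-phase score, also -43.8 with the FDR, -34.5 with S-phase scores of at least 100 and -23.2 within groups of score.

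With 50% shared, summits within 100 bp, the M-phase score and the FDR, an M-phase factor was at 17.5%, 7.70%, 9.13% and 3.60% of sites, and CTCF at 10.6%, 7.01%, 4.74% and 1.73%. HNF4A peaks were found again in 8.91%, 12.7%, 8.49% and 0%, KLF5 peaks in 10.7%, 9.51%, 4.76% and 8.97%, and MYC peaks in 9.75%, 7.07%, 3.79% and 0.595%. With S-phase scores of at least 100 these shares were 28.8% (any factor), 35.0% (CTCF), 22.2% (HNF4A), 26.0% (KLF5) and 18.2% (MYC). The sites at that setting include some with a weak S-phase CTCF peak. Without M-phase KLF5 a factor was at 20.03%. The RAD21 difference by M-phase factor was 2.02 points with summits within 100 bp, 9.21 with the M-phase score and 12.6 with the FDR, where the factor peaks were mainly those of KLF5. That by M-phase CTCF was 17.6 points with the FDR and 19.8 within groups of score. Leaving out sites with M-phase CTCF gives no value for the CTCF share. Why these values moved was not tested.

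Depth limits these shares, since a site is counted only when its peak passed the caller's cutoff in a library of its own depth and control.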

Other observations

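The CTCF-free factor sites were spread unevenly over the chromosomes. Of the 6444 CTCF-free RAD21 sites, 2027 had a factor. The share with a factor was highest on chromosome 15, at 42.2% (109 of 258), and was 40.7% on chromosome 17 (77 of 189). It was 37.4% on chromosome 7 (186 of 497), 35.2% on chromosome 1 (179 of 508) and 35.1% on chromosome 12 (163 of 465). Among the autosomes it was lowest on chromosomes 8 (24.6%, 69 of 280), 13 (25.4%, 58 of 228) and 18 (26.8%, 51 of 190). On chromosome X it was 2.74% (4 of 146), where 387 S-phase factor peaks were listed, and none of these 4 sites had M-phase RAD21. Chromosomes are not replicates, and these shares were not tested against each other.

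Most of the sites stood alone. With gaps of at most 10000 bp, 1738 sites had no other of the set beside them, 116 groups held 2, 15 held 3 and 3 held 4. The group on chromosome 10 from 52051409 to 52055323 had M-phase RAD21 at 2 of its 4 sites, CTCF at 3 and no factor. That on chromosome 3 from 195335127 to 195342846 had M-phase RAD21 at 3 of 4 and no factor or CTCF. The 4 sites on chromosome 3 from 103314065 to 103327716 all had HNF4A as their only S-phase factor, and in M phase 1 had a factor and none had RAD21.

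The distance to the nearest S-phase CTCF peak had a median of 29049 bp for the CTCF-free factor sites and 41350 bp for CTCF-free sites without a factor. It did not order the share with M-phase RAD21, which was 23.3% within 1000 bp (60 sites), 24.9% up to 5000 bp, 23.8% up to 20000 bp and 25.6% beyond. Among CTCF-free sites without a factor, M-phase RAD21 was at 21.2% of the 132 within 1000 bp of a factor peak (14.6 to 29.2%) and at 40.2% of those over 20000 bp away (38.5 to 41.9%). The median S-phase RAD21 scores of these groups were 66.1 and 85.0, and the part of strength in this gradient was not tested.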
